A study of Mus musculus with 4 samples.

Results

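Glucose uptake, glycolysis and the pentose phosphate pathway were followed in alveolar macrophages, which live in the air sacs of the lung, through 36 genes chosen by name. They cover the carriers that bring glucose in and the steps from hexose to lactate, except that of Gapdh. They also cover the switches around phosphofructokinase and pyruvate dehydrogenase, and both arms of the pentose phosphate pathway. Of the 36 genes, 32 had a probe set named for that gene alone and were measured, out of 18782 genes measured in all. Gpi1, Pfkfb1, Eno1 and G6pdx were not analysed here. Where a gene had several such probe sets, the one that was brightest on average over the 4 arrays was taken.

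Cells came from adult mice of C57BL/6 background in 2 groups. WT mice were PPARg fl/fl, that is, they carried floxed alleles of Pparg, the gene of a lipid-sensing nuclear receptor, and no Cre. KO mice were CD11cCre/PPARg fl/fl and added a Cre driven by the CD11c promoter, which is active in alveolar macrophages and also in dendritic cells. Each group had 2 arrays, and each array held sorted cells pooled from 2 mice, so that tests rest on the spread between pools. Both groups were sorted as viable CD45+, CD11c-high, autofluorescent, Siglec-F+ cells, but the WT gate took CD11b-low cells and the KO gate CD11b-high cells. The labels describe the WT cells as mature and the KO cells as immature and arrested.

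Glycolysis splits glucose into pyruvate and yields ATP without oxygen, and lactate dehydrogenase turns pyruvate into lactate. The pentose phosphate pathway branches off after hexokinase, where its oxidative arm makes NADPH and its non-oxidative arm exchanges sugars between ribose phosphate and glycolysis. Macrophages that respond to inflammatory signals are known for high glucose uptake and lactate release. Alveolar macrophages live in an airspace that holds little glucose and much surfactant lipid, and PPARγ is known for its part in lipid handling.

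Values are log2 levels from RMA, a method that corrects background, gives the arrays a common distribution and joins the probes of each probe set, and differences are KO minus WT with the model standard error (SE) from limma. A gene passed the test when its p-value, with Benjamini-Hochberg adjustment over the 18782 genes, was under 0.05. Arrays correlated with r = 0.995 within WT and 0.996 within KO, and between 0.967 and 0.975 across groups. Pparg itself read 9.69 and 9.75 in WT and 9.59 and 9.73 in KO, and since the sources used here do not place its probes against the deleted part, its level checks no label. Itgam, which encodes CD11b, differed by 5.76 ± 0.14 (SE) and Siglecf by -3.27 ± 0.17, while the CD11c gene Itgax differed by 0.24 ± 0.09 (adjusted p = 0.168) and Ptprc, which encodes CD45, by -0.52 ± 0.10 (adjusted p = 0.0212).

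In KO macrophages the genes of glucose entry (3 of 3), hexokinase (2 of 3) and the lactate carriers MCT1 and MCT4 (2 of 2) were higher. Genes of pyruvate dehydrogenase kinase (2 of 4) and of the non-oxidative pentose phosphate arm (2 of 3) were lower, and 5 of 7 genes from aldolase to pyruvate kinase did not pass the test. Some of these calls, those of both lactate carriers, Hk1 and Slc2a3 among them, did not hold in each fit with an array left out, as given by gene below. Of the 32 genes measured, 11 were higher in KO, 6 were lower and 15 did not pass. Called genes were thus 53.1% of the pathway, against 14.3% of all genes tested. Higher genes made up 34.4% (7.41% of all genes) and lower genes 18.8% (6.86% of all genes). The pathway genes were chosen with earlier results of these data known, so these shares and those below are descriptions. Signals of the pathway were high, with a median level of 6.53 against 3.51 for all genes. Among genes above the median level, tested alone, 15 of 29 members (51.7%) and 30.8% of all genes were called. Called genes that differed by at least 1 numbered 6 of 32, or 18.8%, against 5.22% of all genes. The arrays of the groups did not overlap in 24 of the 32 genes, or 75%, against 55.3% of all genes. The median difference of the 32 genes was 0.09, and that of all genes -0.015. Their median size regardless of sign was 0.56, against 0.145 over all genes. All counts come from bulk RNA of sorted pools, in which fewer cells of a type and less RNA per cell cannot be told apart.

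**Figure D1:**
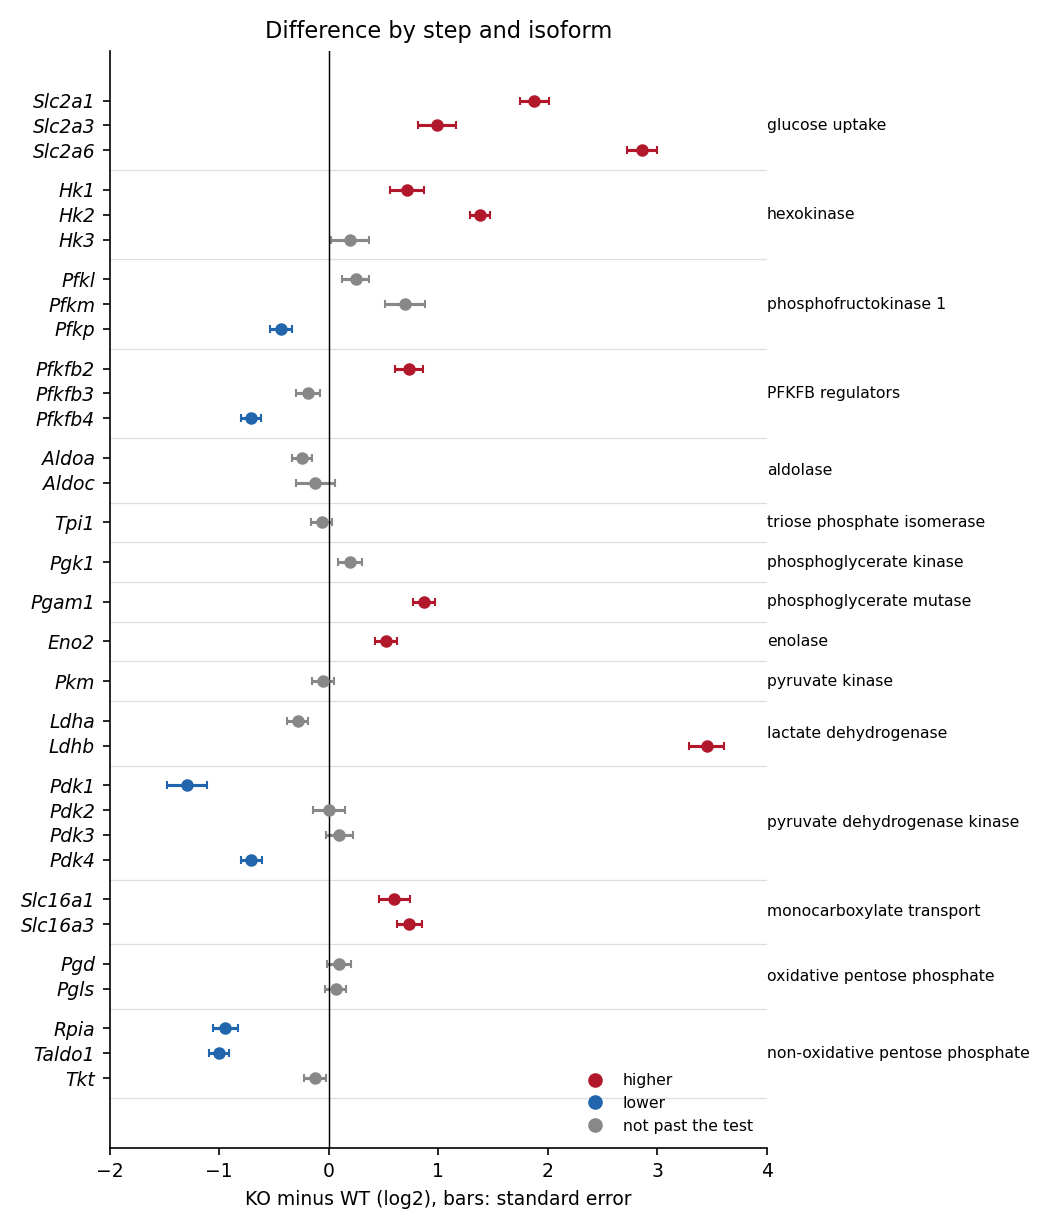
KO minus WT difference on the log2 scale (x axis) for the 32 measured genes, grouped by step, with bars of 1 standard error from limma; red points passed the test as higher, blue points as lower and grey points did not pass. All 3 glucose carriers lie to the right of 0, Ldhb lies farthest right at 3.45 (2.78 with its probe sets averaged, then left of Slc2a6 at 2.86) and Pdk1 farthest left at -1.29.

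Glucose carriers were higher at every gene measured. Slc2a6, which encodes GLUT6, a carrier found on internal membranes of macrophages, read 4.80 and 4.91 in WT and 7.88 and 7.55 in KO, a difference of 2.86 ± 0.14 (SE; adjusted p = 1.18e-04), or 7.24-fold. Slc2a1, which encodes GLUT1, the main carrier of the plasma membrane in most cells, read 7.48 and 7.82 in WT and 9.50 and 9.54 in KO, a difference of 1.88 ± 0.13 (adjusted p = 5.36e-04), or 3.67-fold. Both KO arrays stood far above both WT arrays for these genes. Slc2a3, which encodes the high-affinity carrier GLUT3, read 2.70 and 2.37 in WT, below the array median of 3.14, and 3.72 and 3.33 in KO. Its difference was 0.99 ± 0.17 (adjusted p = 0.0139), with an adjusted p of 0.0753 without KO replicate 1. None of 11 other hexose carriers passed the test in limma, with 2 at an unadjusted p under 0.05. Their differences ran from -0.52 to 0.49, around a median level of 2.53.

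Hexokinases, which trap glucose by phosphorylating it, were higher in 2 of 3 genes. Hk2, the inducible isoform that binds mitochondria, read 4.81 and 4.85 in WT and 6.23 and 6.18 in KO, a difference of 1.38 ± 0.09 (adjusted p = 4.54e-04). Hk1, the isoform found in most tissues, read 5.09 and 5.31 in WT and 6.09 and 5.73 in KO, a difference of 0.71 ± 0.15 (adjusted p = 0.0269). Hk2 arrays lay close together within each group, whereas Hk1 fell short when WT replicate 1 (adjusted p = 0.107) or KO replicate 1 (adjusted p = 0.121) was left out. Hk3, the isoform typical of myeloid cells, read 4.88 and 4.39 in WT and 4.90 and 4.75 in KO and differed by 0.19 ± 0.17 (adjusted p = 0.573), with WT replicate 1 between the KO arrays.

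**Figure D2:**
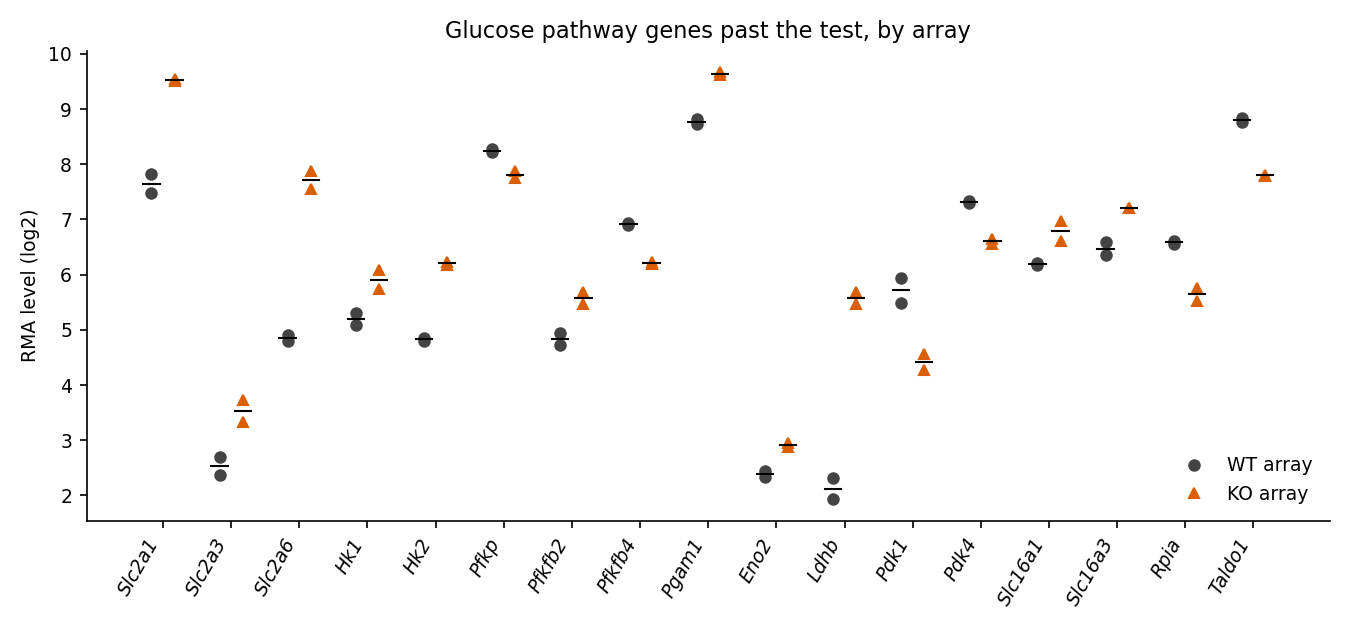
RMA level on the log2 scale (y axis) of the 17 genes past the test on each array, circles for the 2 WT arrays and triangles for the 2 KO arrays, with a line at each group's mean. In all 17 genes the symbols of one group lie wholly above those of the other, which goes with their choice by the test on these arrays. Arrays of the groups also did not overlap in 55.3% of all genes. The mean of Ldhb moves from 2.12 in WT to 5.57 in KO.

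The step of phosphofructokinase, the main point of control in glycolysis, had 1 of 3 genes past the test, Pfkp, which was lower. This platelet-type subunit read 8.22 and 8.27 in WT and 7.87 and 7.75 in KO, a difference of -0.44 ± 0.10 (adjusted p = 0.0364). It did not pass when any 1 array was left out, with adjusted p-values from 0.0937 to 0.171, nor with the replicate number as a block (adjusted p = 0.0634). Pfkm, the muscle-type subunit, read 3.12 and 3.17 in WT and 4.11 and 3.56 in KO, with a difference of 0.70 ± 0.18 that just missed the threshold (adjusted p = 0.0561) and met it without KO replicate 2 (adjusted p = 0.0161) or with an intensity trend in limma (adjusted p = 0.0439). Pfkl, the liver-type subunit that is common in phagocytes, read 5.90 and 5.63 in WT and 6.05 and 5.98 in KO (0.24 ± 0.12; adjusted p = 0.276).

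The PFKFB enzymes make and break the sugar bisphosphate that activates phosphofructokinase. Pfkfb2 read 4.73 and 4.95 in WT and 5.46 and 5.68 in KO, a difference of 0.73 ± 0.13 (adjusted p = 0.0146), which missed the threshold when WT replicate 1 (adjusted p = 0.0604) or KO replicate 2 (adjusted p = 0.0881) was left out. A further probe set that Pfkfb2 shares with another gene was not used. Pfkfb4 went the other way, from 6.90 and 6.94 in WT to 6.19 and 6.23 in KO, a difference of -0.71 ± 0.09 (adjusted p = 0.00493). Pfkfb3, the isoform known for strong kinase activity, read 6.53 on both WT arrays and 6.24 and 6.44 in KO (-0.19 ± 0.11; adjusted p = 0.354). Higher Pfkfb2 and lower Pfkfb4 thus stood beside a Pfkfb3 that did not pass.

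From aldolase to pyruvate kinase, 2 of 7 measured genes were called, both higher. Pgam1, the phosphoglycerate mutase, read 8.73 and 8.81 in WT and 9.67 and 9.61 in KO, a difference of 0.87 ± 0.10 (adjusted p = 0.00256), and passed with any 1 array left out. It had 3 probe sets, of which a pair held identical values and gave 0.78, so near-identical copies of the gene may share its signal. Eno2, the neuron-type enolase, was dim, at 2.44 and 2.33 in WT and 2.94 and 2.87 in KO (0.52 ± 0.10; adjusted p = 0.0198), and it passed without WT replicate 1 but with no other array left out (adjusted p up to 0.110).

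The other enzymes of this stretch did not pass the test. Aldoa, the main aldolase, read 10.71 and 10.67 in WT and 10.45 and 10.44 in KO (-0.24 ± 0.09; adjusted p = 0.159, and 0.00537 with an intensity trend in limma). Aldoc (-0.12 ± 0.18), Tpi1, the triose phosphate isomerase (-0.07 ± 0.10), and Pgk1, the phosphoglycerate kinase (0.19 ± 0.11), did not pass either, with adjusted p-values from 0.337 to 0.743. Pkm, the pyruvate kinase, read 8.90 and 8.91 in WT and 8.78 and 8.92 in KO (-0.05 ± 0.10; adjusted p = 0.807). Pkm splice forms cannot be told apart by this value. Gapdh, named after its values were seen, which catalyses the step after aldolase and triose phosphate isomerase, read 11.46 and 11.44 in WT and 11.40 and 11.39 in KO (-0.06; adjusted p = 0.776). A further probe set of Pgk1 held the same values as the chosen one on each array, so its 0.19 adds no measurement. The other further probe sets, of Pgk1 (0.20), Tpi1 (0.01) and Pkm (-0.0005), gave differences near those of the chosen ones.

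Ldhb, which encodes the subunit of lactate dehydrogenase typical of heart, was higher in KO. Its chosen probe set read 1.93 and 2.32 in WT, below the array median, and 5.68 and 5.46 in KO. The difference was 3.45 ± 0.16 (adjusted p = 1.11e-04), and values this low in WT are compressed by the scale. A further Ldhb probe set read 2.76 and 2.77 in WT and 5.34 and 4.42 in KO, which gave 2.11, and the mean of both probe sets gave 2.78. So on both probe sets each KO array lay above each WT array, by unequal amounts. The sources used here do not place either probe set on the genome, so which of them reads Ldhb itself, rather than a copy, is not known. Ldha, the muscle-type subunit, read 9.93 and 10.0 in WT and 9.67 and 9.69 in KO, a difference of -0.28 ± 0.10 (adjusted p = 0.114, and 0.00682 with an intensity trend in limma). Within each array, the log2 ratio of Ldha to the chosen Ldhb probe set was 8.0 and 7.68 in WT. In KO it was 3.99 and 4.23. Only the change of this ratio can be read, because probe sets differ in response, and the further Ldhb probe set would give a smaller change.

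Lactate leaves and enters cells through monocarboxylate transporters, and the genes of MCT1 and MCT4 were higher. Slc16a3, which encodes MCT4, the exporter of highly glycolytic cells, read 6.35 and 6.58 in WT and 7.20 and 7.21 in KO, a difference of 0.74 ± 0.11 (adjusted p = 0.00889). Slc16a1, which encodes MCT1, read 6.17 and 6.21 in WT and 6.97 and 6.61 in KO, a difference of 0.60 ± 0.14 (adjusted p = 0.0376). Neither call held throughout. Leaving out KO replicate 1 gave Slc16a3 an adjusted p of 0.0620 and leaving out KO replicate 2 gave 0.0607, and Slc16a1 passed only without KO replicate 2, with values up to 0.135 otherwise. Slc16a7, which encodes the further lactate carrier MCT2, lies outside the 36 genes and was named after its values were seen. It read 7.09 and 6.89 in WT and 7.35 and 7.39 in KO (0.38 ± 0.11; adjusted p = 0.0798) and did not pass.

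Pyruvate dehydrogenase kinases phosphorylate and switch off the complex that feeds pyruvate to mitochondria, and 2 of 4 genes were lower. Pdk1 read 5.95 and 5.49 in WT and 4.28 and 4.57 in KO, a difference of -1.29 ± 0.18 (adjusted p = 0.00600; 0.0519 without KO replicate 1). Pdk4, a known PPAR target in muscle and fat, read 7.33 and 7.30 in WT and 6.56 and 6.65 in KO, a difference of -0.71 ± 0.10 (adjusted p = 0.00546), and passed with any 1 array left out. Pdk2 read 6.15 and 6.20 in WT and 5.98 and 6.38 in KO (0.00 ± 0.15; adjusted p = 0.996). Pdk3 read 6.93 and 7.18 in WT and 7.08 and 7.23 in KO (0.10 ± 0.13; adjusted p = 0.704). For Pdk2 and Pdk3 the groups overlapped.

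In the non-oxidative arm of the pentose phosphate pathway 2 of 3 genes were lower. Taldo1, the transaldolase, read 8.84 and 8.77 in WT and 7.79 and 7.80 in KO, a difference of -1.0 ± 0.10 (adjusted p = 0.00139), or 2.00-fold. Rpia, the isomerase that makes ribose phosphate, read 6.62 and 6.55 in WT and 5.75 and 5.53 in KO, a difference of -0.95 ± 0.11 (adjusted p = 0.00345). Both passed with any 1 array left out. Tkt, the transketolase, read 7.96 and 7.95 in WT and 7.88 and 7.78 in KO (-0.13 ± 0.10; adjusted p = 0.496) and did not pass. Nor did Rpe, the epimerase of the same arm, outside the 36 genes and also named after its values were seen (0.05 ± 0.11; adjusted p = 0.816). In the oxidative arm, Pgd, the NADPH-making phosphogluconate dehydrogenase, read 9.64 and 9.50 in WT and 9.58 and 9.74 in KO (0.09 ± 0.11; adjusted p = 0.671). Pgls, the lactonase before it, differed by 0.06 ± 0.10 (adjusted p = 0.765), and the groups overlapped for both genes.

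Isoforms of a step, and the enzymes within each arm of the pentose phosphate pathway, were set against each other by the log2 ratio within each array, which gave 25 pairs that share genes. The smallest p that an exact two-sided permutation test of 2 arrays against 2 allows is 0.333, and the smallest after adjustment over the 25 pairs was 0.416, so no pair could pass and the changes are given as descriptions. The ratio of Ldha to Ldhb moved by -3.73 from WT to KO and that of Slc2a3 to Slc2a6 by -1.87. For Ldhb the chosen probe set was used (3.45), and the further probe set differed by less (2.11). Pfkfb2 gained 1.44 on Pfkfb4, Pfkm 1.13 on Pfkp and Hk2 1.19 on Hk3. Relative to Pdk2, Pdk1 moved by -1.30, and relative to Pdk4 by -0.58. The groups overlapped in the pairs of Slc16a1 and Slc16a3, Rpia and Taldo1, Aldoa and Aldoc, Pdk2 and Pdk3, and Pgd and Pgls.

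**Figure D3:**
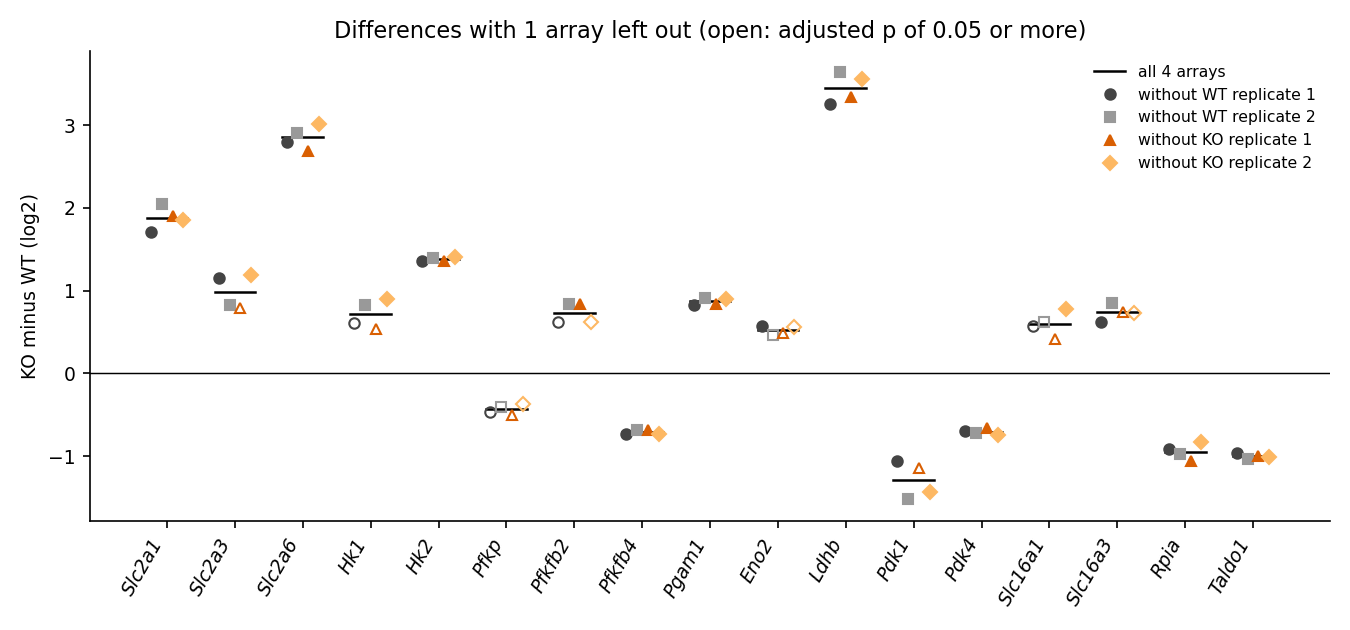
KO minus WT difference on the log2 scale (y axis) of the 17 called genes with all 4 arrays (line) and with each array left out in turn (symbols), filled where the adjusted p stayed under 0.05 and open where it did not. All symbols of Slc2a1, Slc2a6, Hk2, Pfkfb4, Pgam1, Ldhb, Pdk4, Rpia and Taldo1 are filled. No symbol of the 17 crosses 0, which follows from groups that do not overlap in these genes.

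Promoter sequences were examined as a feature that the choice of genes did not use. RefSeq promoter windows of GRCm38.p6, from 250 bases before to 50 after a start site, were found for 35 of the 36 genes, and not for Slc2a3. The 7 sequences here are the 250 bases before the start site, written 5′ to 3′ along the gene. Those of Slc2a1, Hk2, Pgam1 and Slc16a3 show genes higher in KO that hold the hypoxia response core, ACGTG on either strand, which is in capitals. The higher gene Ldhb and the lower genes Pdk4 and Taldo1 hold none.
Slc2a1, chr4:119108495-119108744, plus strand: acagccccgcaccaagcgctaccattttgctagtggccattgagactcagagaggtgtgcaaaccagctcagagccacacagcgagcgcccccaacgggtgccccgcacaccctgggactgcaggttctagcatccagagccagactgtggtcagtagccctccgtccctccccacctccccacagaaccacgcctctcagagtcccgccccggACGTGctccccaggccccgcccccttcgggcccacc
Hk2, chr6:82774455-82774704, minus strand: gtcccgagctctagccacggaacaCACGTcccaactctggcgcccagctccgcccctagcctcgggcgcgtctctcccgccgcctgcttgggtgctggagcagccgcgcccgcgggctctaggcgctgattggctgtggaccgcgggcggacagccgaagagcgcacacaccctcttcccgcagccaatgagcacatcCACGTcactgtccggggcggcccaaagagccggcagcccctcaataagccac
Pgam1, chr19:41911621-41911870, plus strand: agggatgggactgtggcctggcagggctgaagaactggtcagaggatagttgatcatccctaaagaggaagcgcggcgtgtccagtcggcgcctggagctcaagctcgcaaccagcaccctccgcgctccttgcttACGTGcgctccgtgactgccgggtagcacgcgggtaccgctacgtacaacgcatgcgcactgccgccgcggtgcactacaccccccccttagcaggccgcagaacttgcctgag
Slc16a3, chr11:120948817-120949066, plus strand: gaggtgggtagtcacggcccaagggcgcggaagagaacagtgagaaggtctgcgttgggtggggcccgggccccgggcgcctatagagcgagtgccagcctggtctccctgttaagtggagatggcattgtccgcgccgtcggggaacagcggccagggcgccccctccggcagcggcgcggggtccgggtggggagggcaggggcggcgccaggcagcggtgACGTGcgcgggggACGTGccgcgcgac
Ldhb, chr6:142507958-142508207, minus strand: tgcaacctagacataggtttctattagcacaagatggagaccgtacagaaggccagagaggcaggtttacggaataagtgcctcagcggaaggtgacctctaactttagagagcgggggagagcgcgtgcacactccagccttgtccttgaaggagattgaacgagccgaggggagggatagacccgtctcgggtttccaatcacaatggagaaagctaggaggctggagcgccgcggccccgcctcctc
Pdk4, chr6:5496279-5496528, minus strand: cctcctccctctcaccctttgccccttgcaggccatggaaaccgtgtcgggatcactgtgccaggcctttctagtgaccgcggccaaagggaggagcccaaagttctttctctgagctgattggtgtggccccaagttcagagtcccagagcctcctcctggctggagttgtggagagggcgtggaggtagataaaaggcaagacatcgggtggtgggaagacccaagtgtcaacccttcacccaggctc
Taldo1, chr7:141391910-141392159, plus strand: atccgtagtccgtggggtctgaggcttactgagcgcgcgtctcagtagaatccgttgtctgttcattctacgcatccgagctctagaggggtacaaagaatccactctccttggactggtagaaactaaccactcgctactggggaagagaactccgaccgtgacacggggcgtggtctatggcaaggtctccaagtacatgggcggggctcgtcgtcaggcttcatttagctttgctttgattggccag

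The hypoxia response core lay in a window of 7 of the 10 higher genes with a window, of 0 of the 6 lower genes and of 10 of the 15 genes that did not pass. That made 18 of the 35 genes with a window, or 51.4%, counting G6pdx, against 21.8% of all 27025 genes with one, and per window 40% of the 55 windows of the pathway against 19.6% of all 32851. Pathway windows were richer in G and C, with a median of 60.7% against 52.7%, and in CG pairs, with a median of 20 against 7. The windows of the lower genes had a median of 21 CG pairs and those of the higher genes 18. Matches are given as a description of letters in these windows, and genes with several start sites had more windows to match. In Hk2 the matches began 226 and 52 bases before the start site, in Slc2a1 36, in Pgam1 114 and in Slc16a3 27 and 14.

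The E-box CACGTG, bound by factors such as MYC and containing the hypoxia core, lay in windows of 6 of 35 pathway genes, or 17.1%, against 8.09% of all genes. The antioxidant response core, TGAC and GC with 3 bases between, lay in 14.3% of pathway genes and 14.0% of all genes. A PPAR response element of the DR1 form, AGGTCA repeated with 1 base between, was in 0 of the 35 and in 0.0481% of all genes. With up to 2 mismatches it was in the window of Ldhb alone among the 35, against 4.40% of all genes. Windows this short leave out distant elements.

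**Figure D4:**
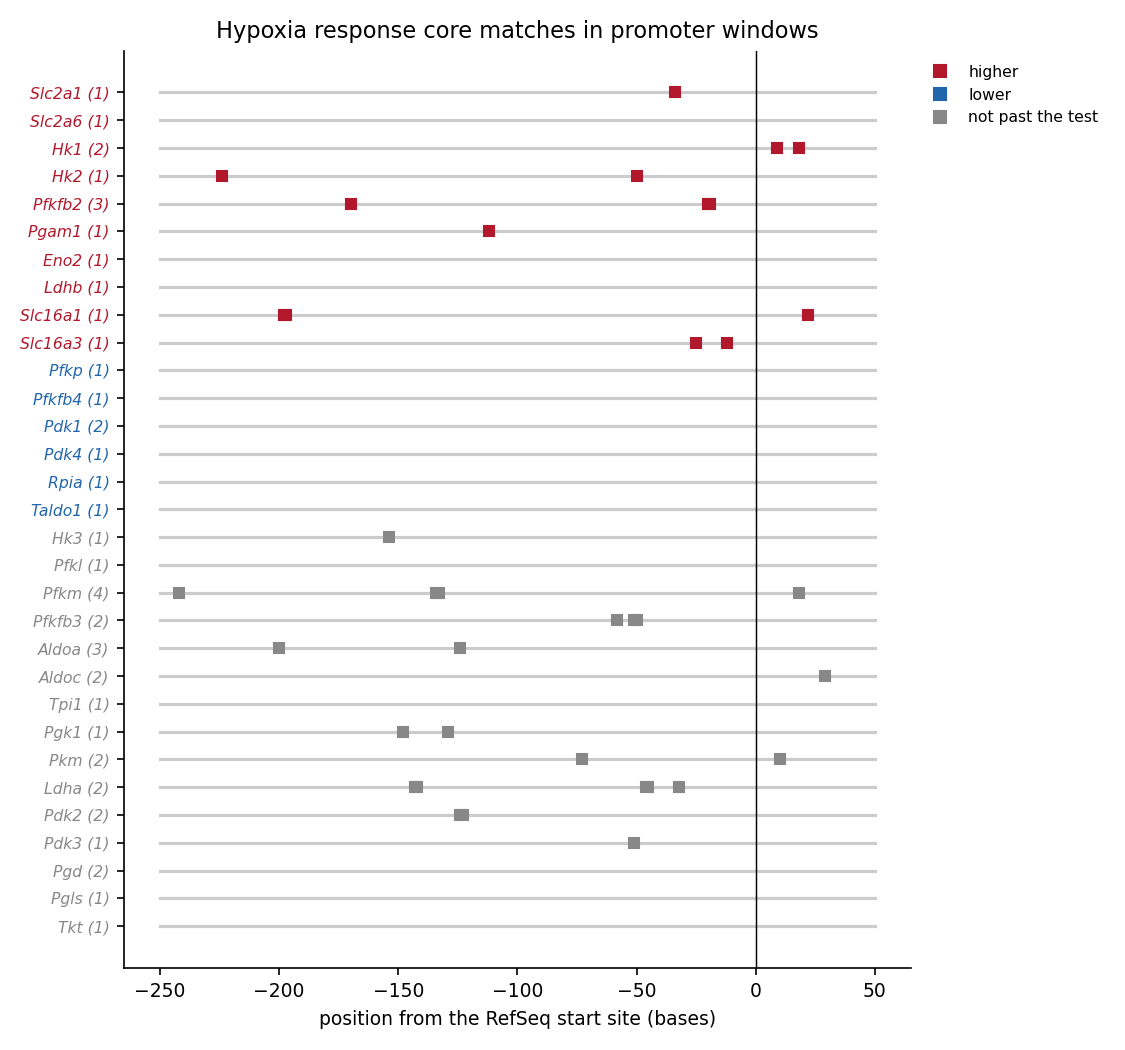
Positions of the hypoxia response core (squares) from 250 bases before to 50 after the RefSeq start site (x axis) for the 31 measured genes with a window, with the number of windows overlaid in brackets; names and squares are red for genes higher in KO, blue for lower and grey for those not past the test. Squares appear on 7 of 10 red lines, on 10 of 15 grey lines and on 0 of 6 blue lines.

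Beyond the 36 genes, 102 other genes of glucose use were listed by role, of which 93 were measured. In KO 13 of these were higher and 6 lower, or 20.4% called against 14.3% of all genes, with a median difference of 0.015. Their median level was 5.39, against 3.51 for all genes, so 14.3% is not the share among genes of like level. Of all genes above the median level, tested alone, 30.8% were called. Of 19 regulators, 4 were higher, 1 was lower and 14 did not pass. Epas1, which encodes the hypoxia-inducible factor HIF-2α, read 5.52 and 6.16 in WT and 8.13 and 8.12 in KO, a difference of 2.29 ± 0.20 (adjusted p = 0.00115). Hif1a, which encodes HIF-1α, read 7.98 and 7.97 in WT and 8.74 and 8.72 in KO (0.76 ± 0.09; adjusted p = 0.00366). Myc, a growth regulator that also acts on glycolytic genes, rose by 1.02 ± 0.10 (adjusted p = 0.00179). Txnip, a brake on glucose uptake, fell by 0.93 ± 0.14 (adjusted p = 0.00845). Nfe2l2, which encodes the antioxidant regulator NRF2 and was named after its values were seen, was the other higher regulator (0.39 ± 0.10; adjusted p = 0.0459). For Txnip the adjusted p came to 0.0677 once KO replicate 1 was left out, and Nfe2l2 did not pass when any 1 array was left out (adjusted p up to 0.186).

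Glycogen and hexose phosphate genes went both ways, with 2 higher, 4 lower and 10 not past the test of 16. Gys1, the glycogen synthase, was lower by -1.22 ± 0.11 (adjusted p = 0.00119) and Phka2, a subunit of phosphorylase kinase, by -0.96 ± 0.13 (adjusted p = 0.00529). Gbe1, the branching enzyme, was higher by 1.02 ± 0.13 (adjusted p = 0.00460) and Pgm2l1, an enzyme of hexose bisphosphate, by 0.87 ± 0.12 (adjusted p = 0.00529). The phosphorylase genes Pygb (-0.48 ± 0.10) and Pygm (-0.46 ± 0.12), named after their values were seen, were the other lower genes, and neither passed when any 1 array was left out.

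Of 7 other lactate and monocarboxylate carriers, 1 was lower and 1 higher. Slc16a10, an aromatic amino acid carrier of the monocarboxylate transporter family, was lower by -1.47 ± 0.14 (adjusted p = 0.00131), and Emb, which encodes embigin, a partner of monocarboxylate transporters, was higher by 1.02 ± 0.18 (adjusted p = 0.0148). Of 9 genes around gluconeogenesis and fructose, 2 were higher, the sugar phosphate carrier gene Slc37a2 (1.12 ± 0.09; adjusted p = 9.18e-04) and the phosphatase gene G6pc3 (0.39 ± 0.10; adjusted p = 0.0437). Of 9 other pentose phosphate genes, H6pd, the dehydrogenase of the endoplasmic reticulum (0.65 ± 0.14), and Prps2, which makes the ribose donor for nucleotides (0.58 ± 0.09), were higher. Mpc1, a subunit of the mitochondrial pyruvate carrier, was the single gene past the test of 9 for pyruvate entry (0.54 ± 0.10; adjusted p = 0.0183). Of 13 genes listed as other glycolytic enzymes and isoforms, only Minpp1, named for an inositol polyphosphate phosphatase, passed in limma (0.47 ± 0.10, adjusted p = 0.0239). Of these, Slc16a10 and Slc37a2 passed with any 1 array left out, and G6pc3 and Minpp1 passed in none of these fits, with adjusted p-values up to 0.175. Emb, Prps2, H6pd and Mpc1 missed the threshold without KO replicate 1 or without KO replicate 2, and H6pd and Mpc1 also without WT replicate 1.

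**Figure D5:**
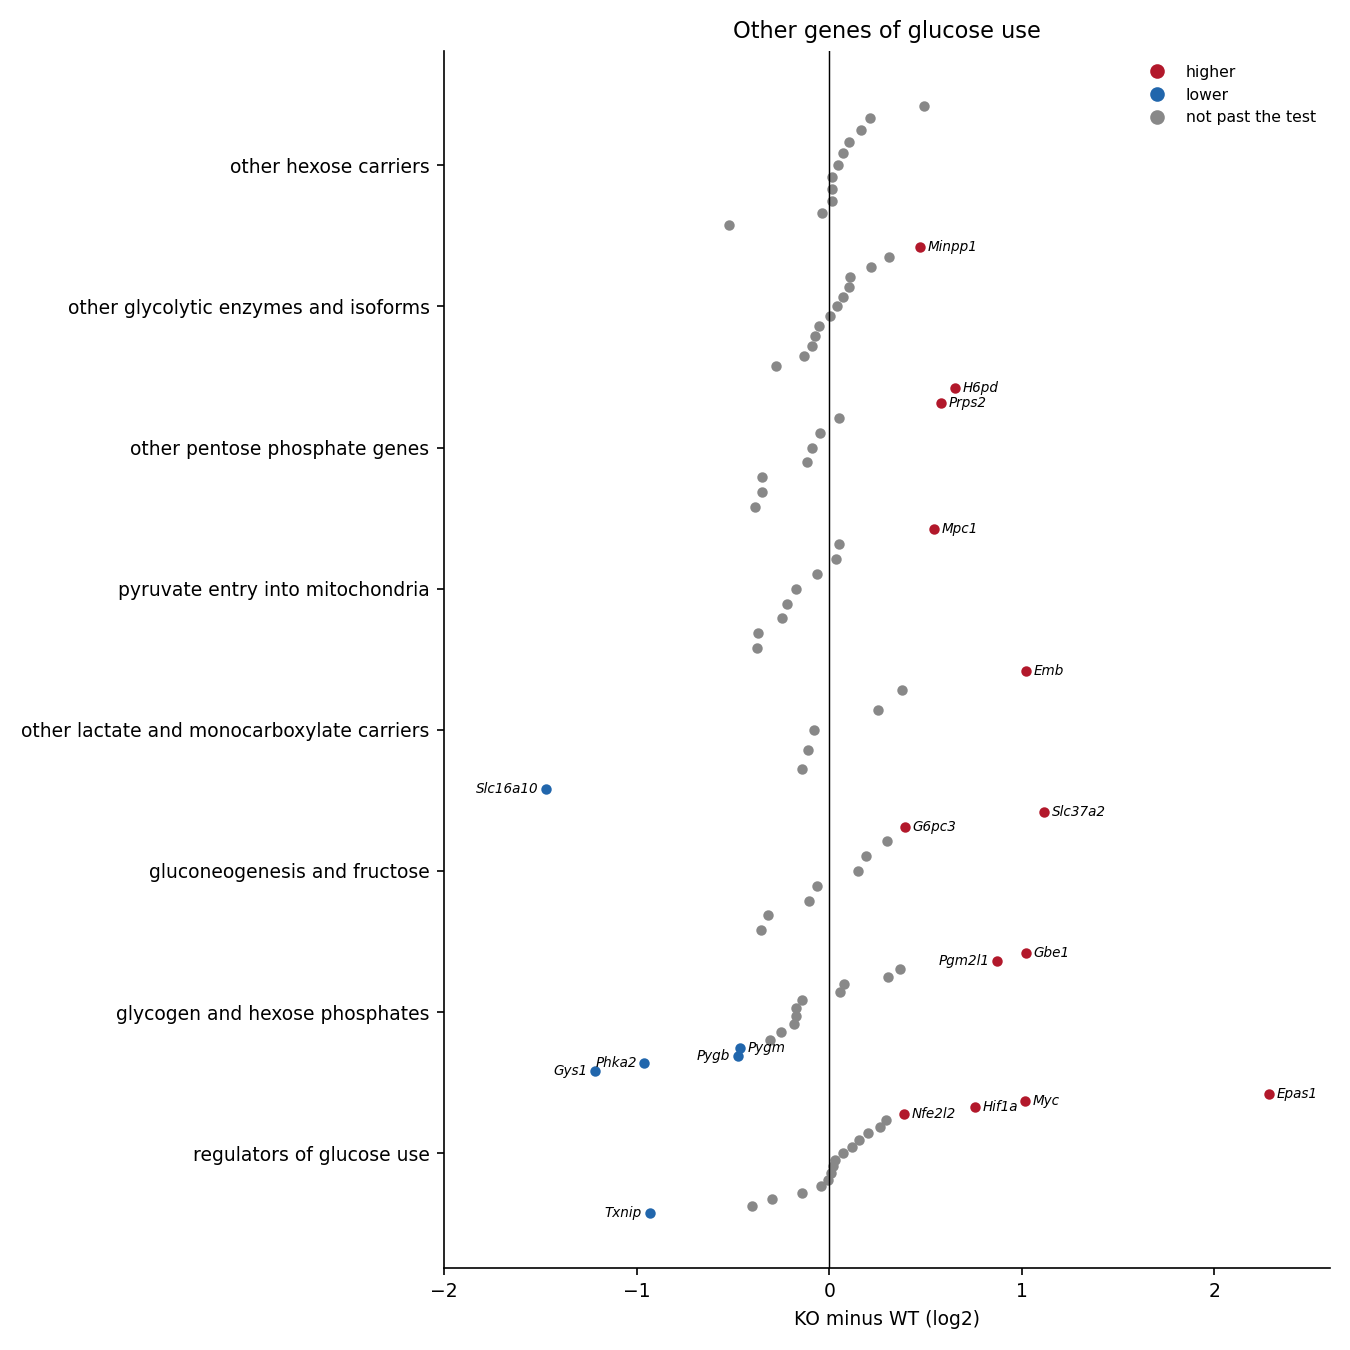
KO minus WT difference on the log2 scale (x axis) for 93 other genes of glucose use in 8 lists (y axis), in red where higher in KO, in blue where lower and in grey where not past the test. Epas1 lies farthest right at 2.29 and Slc16a10 farthest left at -1.47, and all 11 other hexose carriers are grey.

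Markers of other cells were read beside these results. Of 15 alveolar macrophage markers 9 were lower and 0 higher, with summed linear levels from 14510.4 to 16248.4 in WT and from 9675.4 to 9707.1 in KO, though Chil3 and Plet1 read over 11 on all 4 arrays. Fabp1 (2.55 and 2.48) and Epcam (1.88 and 2.29) were below the array median on both KO arrays. Among 10 interstitial macrophage markers, 8 were higher, with sums from 187.9 to 275.2 in WT and from 3240.4 to 3491.6 in KO, while Cd163 and Folr2 lay below the array median in both groups. Of 8 monocyte markers 5 were higher (3502 to 4211.7 in WT and 5399 to 5510.4 in KO), and Plac8 lay below the median. Of 12 neutrophil markers 2 were higher, Mmp8 and S100a8, and 1 lower, Csf3r, with 8 others below the median, among them Elane, Mpo, Ltf and Ngp. The sums of the 12 were 298.5 to 476.1 in WT and 1093.7 to 1121.2 in KO. Such a sum is led by its brightest gene. In KO this was Mmp8 for neutrophil markers (9.82 and 9.88) and Apoe for interstitial macrophage markers (11.22 and 11.22). Of 8 dendritic cell markers 1 was higher, Cd209a, with Flt3, Zbtb46 and Xcr1 below the median. The sums of the 8 were 100.1 to 113.5 in WT and 140.9 to 229.1 in KO. Clec9a, the brightest of them in KO, read 4.56 and 5.58 in WT and 5.79 and 6.99 in KO. It did not pass in limma (adjusted p = 0.125). None of 7 eosinophil, 8 lymphocyte, 8 epithelial and 2 erythroid markers passed in limma, with 1, 1, 1 and 0 of them at an unadjusted p under 0.05. Their sums were 53.3 to 63.8 in WT and 34.4 to 67.7 in KO for eosinophil markers, 44.2 to 51.1 and 51.1 to 53.8 for lymphocyte markers, 197.7 to 317.4 and 280.1 to 297.1 for epithelial markers, and 10.0 to 10.8 and 10.8 to 11.2 for erythroid markers. The part of the macrophage, monocyte, neutrophil and dendritic cell markers, and of the unlike CD11b gates, in the differences of the pathway was not tested.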

How the data were processed

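Sorted alveolar macrophages of 2 WT and 2 KO pools, each of 2 mice, were each hybridised to an Affymetrix array. The deposited values are log2 expression values per probe set, for which the submitters' processing notes name RMA and R 2.15.2. RMA settings, genome build and annotation were not given in the sources used here. The 4 arrays share 1 distribution (values 0.96 to 12.11, median 3.14), so a change of most transcripts in one direction would not be seen. Of 28371 probe sets, 21158 had 1 gene symbol, 1881 several and 5332 none listed, and 1368 genes had more than 1 probe set.

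KO was compared with WT by limma 3.58.1 in R 4.3.3 (group as the only term, empirical Bayes, two-sided, 2 residual and 4.16 prior degrees of freedom), and p-values were adjusted by Benjamini-Hochberg over 18782 genes with no filter. The procedure was tested on simulated data. Promoter windows came from RefSeq (GRCm38.p6). Genes named were all pathway genes past the test, isoforms of their steps, the best known enzymes, and of other lists all genes past the test or the 4 with the smallest p. Members, lists and tests were chosen with earlier results of these data known. Alternatives were another probe set rule, scaling, a filter on dim genes, other variance models, a test against 0.5, the replicate block and leaving out each array.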

Additional observations from a re-analysis of the deposited data

How the results depend on the processing

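The 11 higher and 6 lower pathway genes stayed the same in number with probe sets averaged, with the 75th percentile subtracted, with quantile normalization repeated and with robust moderation. Subtracting the percentile and repeating quantile normalization could change little, because the deposited arrays already share a distribution, so these runs test no dependence on scaling. Testing genes above the median level alone gave 9 and 6, as 2 called genes were not in it, and an intensity trend gave 12 and 8, adding Pfkm, Aldoa and Ldha. Over all genes the trend also called more, 1667 higher and 1591 lower against 1391 and 1289 as designed. Testing genes above the median level alone called 1400 higher and 1489 lower. Testing against a difference of 0.5 in limma called 4 higher and 1 lower (Slc2a1, Slc2a6, Hk2 and Ldhb, and Taldo1), 3 higher and 2 lower among the 93 other genes, and 498 higher and 336 lower over all genes. With any 1 array left out there were 6 to 9 higher and 4 to 5 lower pathway genes, 6 to 10 and 3 to 5 among the other genes, and 724 to 1227 and 647 to 1057 over all genes. Each such fit holds a single array in one group, which is assumed to vary like the others. No called pathway gene changed sign in any alternative run. With an array left out this was fixed in advance, since the groups did not overlap in any called gene. Robust moderation, the intensity trend, the test against 0.5 and the replicate block leave the differences themselves unchanged. Uncalled genes that changed sign with an array left out were Hk3 (-0.056 to 0.436), Aldoc (-0.38 to 0.13), Pkm (-0.124 to 0.019), Pdk2 (-0.20 to 0.20) and Pdk3 (-0.031 to 0.222).

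With the replicate number as a block, 11 pathway genes were higher and 5 lower, the call lost being Pfkp, and over all genes 1309 were higher and 1168 lower. Samples of the same number did not deviate together (r = -0.02 over 18782 genes), and the labels tie no number to a shared litter or day. The number of arrays and the compressed scale near background limit the precision of dim genes such as Slc2a3, Eno2 and Ldhb.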
